A study of Glycine max with 12 samples.

Results

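A set of 8 soybean (Glycine max) genes that are often used as references for quantitative PCR were followed through 12 root libraries, 8 of 49551 genes in the deposited tables and all of them among the 36323 genes that had enough counts to be tested. They were chosen from a list of gene IDs, with no use of their values. The uncolonized roots (NM) carried no arbuscular mycorrhizal fungus, the Ri roots carried Rhizophagus irregularis, and the roots called Ga-H and Ga-L carried Glomus aggregatum, with heavy colonization in Ga-H and light colonization in Ga-L; each of the 4 groups had 3 libraries. The labels give the tissue as root and name no cultivar, plant age, harvest time or pot. Whether replicates are different plants is not stated, so the p-values measure the spread between these libraries, which may be technical in part.

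A reference gene is the yardstick of quantitative PCR: the transcript of interest is divided by it, so that differences in RNA input and reverse transcription cancel. Genes for actin, tubulin, ubiquitin, translation elongation factors and other parts of the basic machinery of the cell are common choices in plants, because nearly every cell uses them. The division is safe only if the reference keeps its share of the RNA across the conditions compared. Arbuscular mycorrhizal fungi grow within the root cortex and build branched exchange organs inside its cells, so colonized and uncolonized roots differ in cell content, and the steadiness of a reference is an open question for each gene. The files pair these IDs with no names, and the reference table used here holds none of them, so the genes are given by ID and no role is assigned to any. In bulk roots, fewer cells of a type and less RNA per cell cannot be told apart.

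Expected counts, which divide reads that match several genes, summed to between 10182200 and 11054762 per library. FPKM, the deposited level, is scaled to transcript length and library size. The library labelled Ri replicate 1 had the lowest mean correlation across genes with its own group, 0.896, beside 0.939 with Ga-H. The own-group means of the other Ri libraries include Ri replicate 1 and were close to their means with Ga-H. These libraries correlated most with each other, at 0.9574. Ri replicate 3 was at 0.936 with its own group and 0.941 with Ga-H, and Ri replicate 2 at 0.917 and 0.915. Results that rest on Ri replicate 1 are given with and without it. Estimated sharing of reads touched nearly every value of the reference genes, since 1 of their 96 expected counts was whole within 0.005, against 12.7% of the values of all tested genes with a mean of at least 10 FPKM. Their levels can therefore hold reads of close copies. The comparison was not matched for level, and a count that is not whole does not tell how many reads were shared.

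The 8 genes covered a wide range of levels. The highest was Glyma.20G141600.Wm82.a2.v1 at 1690 ± 150 FPKM (SD, n = 12), at percentile 99.99 of all tested genes. Next came Glyma.12G024700.Wm82.a2.v1 at 755 ± 245 FPKM, Glyma.05G157300.Wm82.a2.v1 at 181 ± 49.9 and Glyma.18G290800.Wm82.a2.v1 at 103 ± 24.1. Glyma.02G276600.Wm82.a2.v1 was at 98.7 ± 14.1 FPKM, Glyma.19G147900.Wm82.a2.v1 at 54.8 ± 22.5, Glyma.12G051100.Wm82.a2.v1 at 51.4 ± 2.78 and Glyma.12G020500.Wm82.a2.v1 at 38.5 ± 5.33. In this order the neighbours Glyma.18G290800 and Glyma.02G276600 did not differ beyond their spread, nor did Glyma.19G147900 and Glyma.12G051100. The tag Wm82.a2.v1 is left out of the IDs from here on. Mean expected counts ran from 738.8 to 30660 per library, so that counting error alone would give a coefficient of variation (CV) of at most 3.68%.

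**Figure D1:**
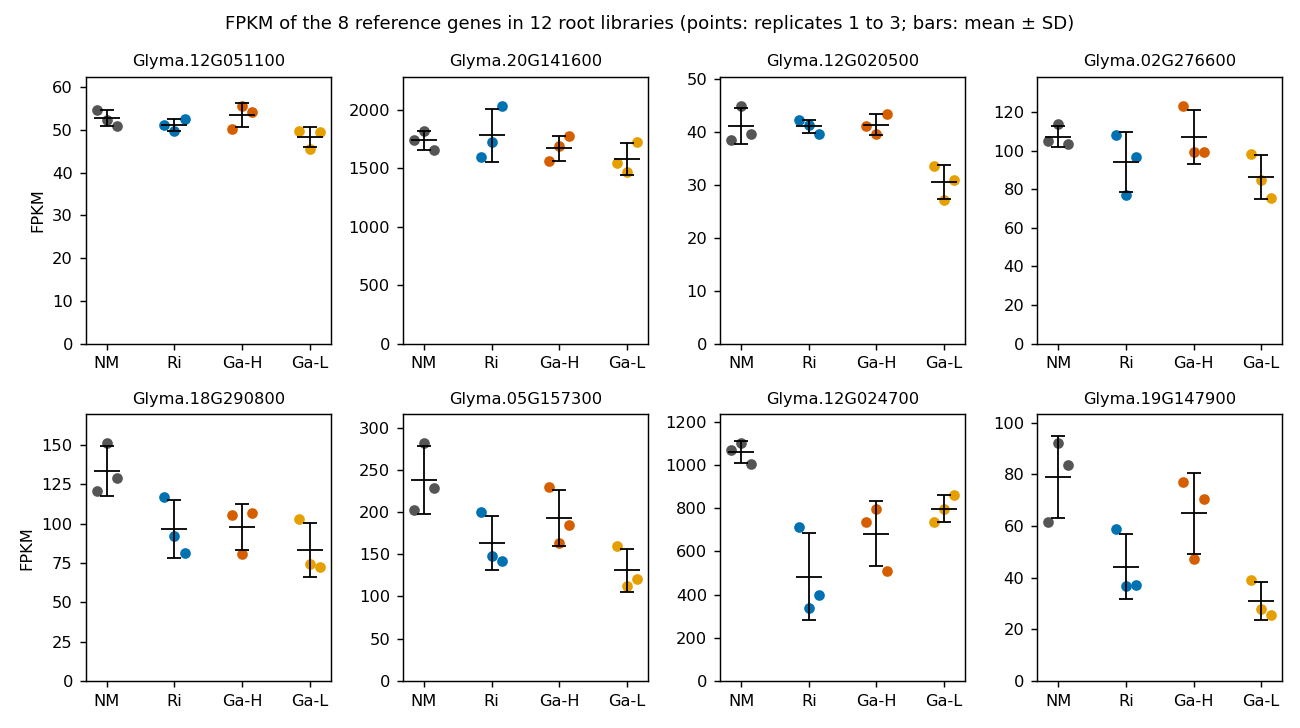
FPKM of each of the 8 reference genes (vertical axes from 0, linear, a separate scale per gene) in the 4 groups on the horizontal axis, with 1 point per library and the mean ± SD in black. The top row holds the 4 genes with the smallest spread, and in the bottom row the 3 NM libraries of Glyma.12G024700, at 1003.57 to 1101.88 FPKM, lie above all colonized libraries.

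The steadiest of the 8 was Glyma.12G051100. Its FPKM in NM replicates 1 to 3 was 54.70, 52.28 and 51.00, and in Ri 51.14, 49.68 and 52.58. In Ga-H it was 50.22, 55.65 and 54.23, and in Ga-L 49.77, 45.53 and 49.42. The highest library was thus 1.22 times the lowest, and although in FPKM the 3 Ga-L libraries lay below the 3 NM and the 3 Ga-H libraries, the group means differed by at most 0.08 on the log2 scale of CPM, the counts scaled to library size. In CPM the Ga-L and Ga-H libraries overlapped, with 88.98 in Ga-H replicate 1 and 94.25 in Ga-L replicate 3, and the Ri libraries, at up to 93.81, lay below NM, at 94.43 or more. The CV was 5.4%, beside 3.18% that counting error would give. Among the 12861 tested genes with a mean of at least 10 FPKM, 25, itself included, had an SD of log2 CPM over the 12 libraries as small or smaller. Its log2 fold changes against NM were -0.07 in Ri (SE 0.09, 95% interval -0.27 to 0.14), -0.01 in Ga-H (SE 0.09, -0.21 to 0.19) and -0.08 in Ga-L (SE 0.09, -0.28 to 0.13), and none passed edgeR's quasi-likelihood test (Benjamini-Hochberg adjusted p = 0.671, 0.971 and 0.612). The intervals leave room for a fall to 0.822 of the NM level, the lower bound in Ga-L, and for a rise to 1.14 times that level, the upper bound in Ga-H.

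Glyma.20G141600, the most abundant of the 8, showed the next smallest spread. It had 1742.49, 1818.31 and 1654.60 FPKM in NM and 1592.40, 1721.55 and 2033.89 in Ri. Its level was 1557.79, 1686.38 and 1770.41 FPKM in Ga-H and 1540.97, 1466.32 and 1726.88 in Ga-L. No group stood clear of NM, and the highest library, Ri replicate 3, was 1.39 times the lowest, Ga-L replicate 2. Its SD within groups, 0.117 on the log2 CPM scale, was larger than the 0.101 between its highest and lowest group means. The log2 fold changes against NM were 0.01 in Ri (SE 0.17), -0.09 in Ga-H (SE 0.17) and -0.09 in Ga-L (SE 0.17), with edgeR adjusted p = 0.973, 0.841 and 0.759. Their 95% intervals were wider than those of Glyma.12G051100, together spanning -0.47 to 0.39. The value in Ri was -0.06 with upper quartile scaling.

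Glyma.12G020500 was lower in Ga-L than in uncolonized roots. It was at 38.60, 45.02 and 39.71 FPKM in NM, 42.23, 41.36 and 39.74 in Ri, and 41.16, 39.62 and 43.49 in Ga-H. In Ga-L it was at 33.51, 27.08 and 30.96 FPKM. All 3 Ga-L libraries lay below the other 9, with a mean of 30.5 ± 3.24 FPKM (SD, n = 3) against 41.1 ± 3.43 in NM. It fell in Ga-L to 76.4% of NM (log2 fold change -0.39, SE 0.11, 95% interval -0.63 to -0.15, edgeR adjusted p = 0.0368). In Ri and Ga-H its log2 fold change against NM was -0.03 in each, with intervals from -0.27 to 0.21 and from -0.26 to 0.21 (edgeR adjusted p = 0.869 and 0.932). The direct differences from Ga-L were 0.36 both for Ri and for Ga-H (SE 0.11 each), and neither passed (edgeR adjusted p = 0.0887 and 0.112, unadjusted p = 0.00711 and 0.00642). The Ga-L call itself was lost in 9 of 22 alternatives (scaling by the reference genes themselves not counted among them here or below), among them the fits without the low-count filter, with only Ga-L and NM, and without NM replicate 2 or 3, Ga-H replicate 1 or 2, or Ga-L replicate 2 or 3 (adjusted p from 0.00974 to 0.157 over all 22).

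Glyma.02G276600 had no difference from NM that passed the test. Its FPKM was 104.81, 113.63 and 103.68 in NM and 108.25, 77.29 and 96.78 in Ri. It was 123.37, 99.33 and 99.12 in Ga-H and 98.20, 84.79 and 75.63 in Ga-L. The Ga-L libraries were below all NM and Ga-H libraries, while Ri overlapped with every other group. In CPM Ga-L replicate 1, at 123.4, was above Ga-H replicates 2 and 3, at 119.7 and 120.7. The log2 fold changes against NM were -0.21 in Ri (SE 0.15, 95% interval -0.54 to 0.12), -0.03 in Ga-H (SE 0.15, -0.36 to 0.30) and -0.27 in Ga-L (SE 0.15, -0.60 to 0.06). None passed (edgeR adjusted p = 0.364, 0.938 and 0.249).

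**Figure D2:**
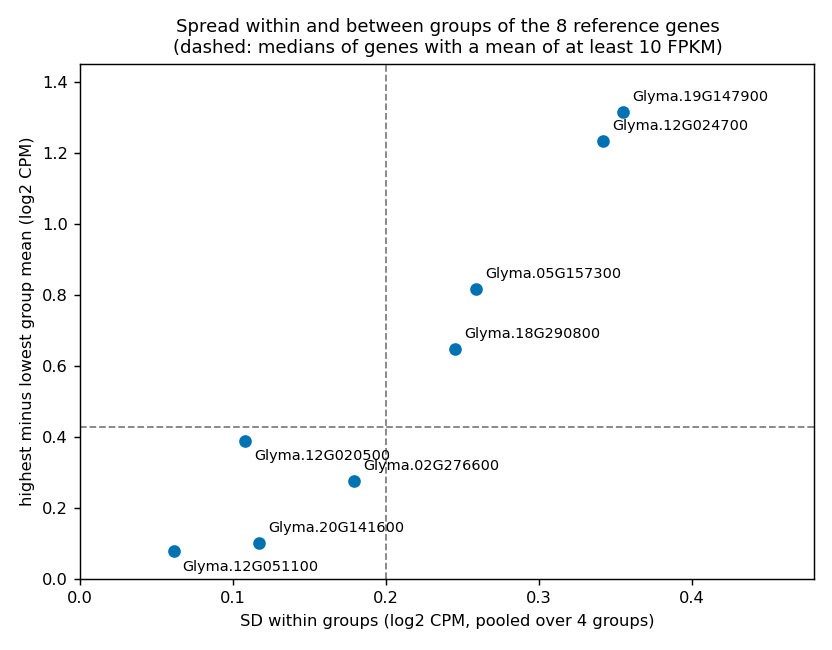
Each point is 1 of the 8 reference genes, with the SD within groups on the horizontal axis (log2 CPM, pooled over 4 groups of 3 libraries) and the distance between the highest and lowest group mean on the vertical axis (log2 CPM). Dashed lines mark the medians of the 12861 tested genes with a mean of at least 10 FPKM, 0.2 and 0.428, and 4 reference genes lie beyond both lines.

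The remaining 4 genes were highest in NM and moved by larger steps. Glyma.18G290800 had 120.49, 151.30 and 129.10 FPKM in NM and 116.80, 92.09 and 81.07 in Ri. It had 105.75, 80.88 and 106.72 FPKM in Ga-H and 103.12, 74.54 and 72.17 in Ga-L. No colonized library reached the lowest NM library, but none of the 3 log2 fold changes passed: -0.49 in Ri (SE 0.19), -0.48 in Ga-H (SE 0.19) and -0.64 in Ga-L (SE 0.19), with edgeR adjusted p = 0.118, 0.184 and 0.0501. Their 95% intervals lay below 0, from -0.91 to -0.07, from -0.90 to -0.06 and from -1.06 to -0.21. The Ga-L value stood at the threshold, and 10 of 22 alternatives called it, among them DESeq2, upper quartile scaling, all 3 limma fits on FPKM and the fits without Ri replicate 1, Ri replicate 3 or Ga-L replicate 1 (adjusted p from 0.0194 to 0.18 over all 22). Without Ri replicate 1 the Ri value, -0.69, was called as well (edgeR adjusted p = 0.0243).

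Glyma.05G157300 was lower in Ga-L than in uncolonized roots as well. Its FPKM was 202.55, 281.81 and 228.78 in NM and 199.95, 147.71 and 141.80 in Ri. It was 229.28, 163.72 and 185.14 in Ga-H and 160.14, 112.64 and 120.32 in Ga-L. The Ri and Ga-L libraries were all below NM and the Ga-L libraries all below Ga-H, whereas Ga-H overlapped with NM. In CPM the Ga-L and Ga-H libraries overlapped, with 295.3 in Ga-L replicate 1 and 289.5 in Ga-H replicate 2. It fell in Ga-L to 56.9% of NM (log2 fold change -0.81, SE 0.21, 95% interval -1.27 to -0.36, edgeR adjusted p = 0.0252), a call that was lost without NM replicate 2 or 3 or without Ga-L replicate 2 or 3 (0.00279 to 0.114 over 22 alternatives). In Ri the log2 fold change was -0.56 (SE 0.21, interval -1.02 to -0.11, edgeR adjusted p = 0.0973), and it was -0.78 and called without Ri replicate 1 (edgeR adjusted p = 0.0195). In Ga-H it was -0.33 (SE 0.21, interval -0.79 to 0.12, edgeR adjusted p = 0.431).

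The widest spread of the 8 was that of Glyma.19G147900, with a CV of 41% and a highest library 3.58 times the lowest. It was at 61.39, 92.15 and 83.71 FPKM in NM and 58.83, 36.81 and 37.08 in Ri. In Ga-H it was at 77.03, 47.30 and 70.49 FPKM and in Ga-L at 39.21, 27.68 and 25.71. The Ga-L libraries lay below all NM and Ga-H libraries, the Ri libraries lay below NM, and Ga-H overlapped with both NM and Ri. Its level fell in Ga-L to 40.2% of NM (log2 fold change -1.31, SE 0.26, 95% interval -1.88 to -0.74, edgeR adjusted p = 0.00726), and the call was kept in all 22 alternatives (adjusted p from 7.66e-05 to 0.0418). In Ri its log2 fold change of -0.86 (SE 0.26, interval -1.42 to -0.29) did not pass (edgeR adjusted p = 0.0518) but was called in 7 of 22 alternatives, among them DESeq2, upper quartile scaling and the fits without NM replicate 1, Ri replicate 1, Ga-H replicate 2 or Ga-L replicate 1 (0.00691 to 0.171 over all 22). In Ga-H it was -0.32 (SE 0.26, interval -0.88 to 0.25, edgeR adjusted p = 0.568). Ga-H exceeded Ga-L by a log2 fold change of 1 (SE 0.26, interval 0.43 to 1.57), which did not pass (edgeR adjusted p = 0.0834) but did with DESeq2, with only these groups fitted and without Ri replicate 1.

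Glyma.12G024700 took another course, lowest in Ri instead of Ga-L. Its FPKM was 1070.86, 1101.88 and 1003.57 in NM and 711.89, 338.04 and 397.75 in Ri. It was 737.81, 795.51 and 511.13 in Ga-H and 737.84, 796.26 and 860.14 in Ga-L. Every colonized library was below every NM library, and the Ri libraries were also below Ga-L. Ri replicate 1 was nearer to Ga-H than to the other Ri libraries. The gene fell in Ri to 45% of NM (log2 fold change -1.15, SE 0.27, 95% interval -1.74 to -0.56, edgeR adjusted p = 0.0175), and without Ri replicate 1 the log2 fold change was -1.59 (edgeR adjusted p = 0.000213). That call was lost with only Ri and NM fitted and without NM replicate 2, Ri replicate 2 or Ri replicate 3 (0.000213 to 0.0864 over 22 alternatives). In Ga-H its log2 fold change was -0.67 (SE 0.27, interval -1.25 to -0.08, edgeR adjusted p = 0.186), called without Ri replicate 1 alone (edgeR adjusted p = 0.024). In Ga-L it was -0.36 (SE 0.27, interval -0.95 to 0.23, edgeR adjusted p = 0.396). The direct difference of Ri from Ga-L, -0.79 (SE 0.27, interval -1.38 to -0.20), did not pass (edgeR adjusted p = 0.122) but was called by DESeq2 and without Ri replicate 1, where it was -1.22. Without that library Ri was also below Ga-H, by a log2 fold change of -0.91 that was called (edgeR adjusted p = 0.0265).

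**Figure D3:**
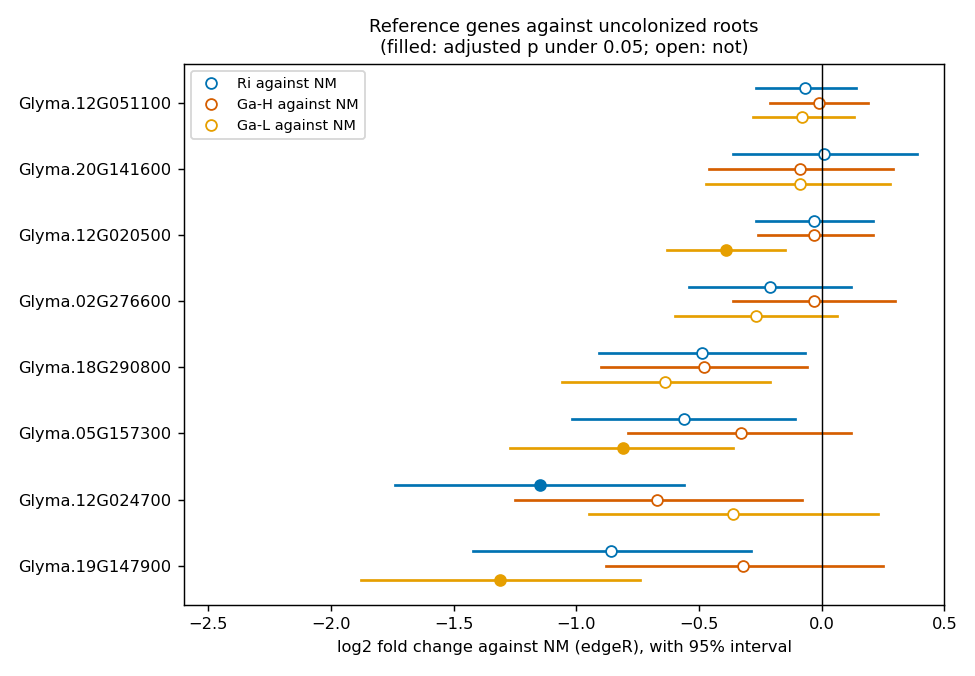
Log2 fold changes against NM on the horizontal axis, with 95% intervals, for the 8 reference genes in order of their spread, in Ri, Ga-H and Ga-L (edgeR, 3 libraries per group). Filled points passed at an adjusted p of 0.05, which were Glyma.12G024700 in Ri and Glyma.12G020500, Glyma.05G157300 and Glyma.19G147900 in Ga-L.

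Counted by comparison, 3 of the 8 genes were called in Ga-L against NM, all lower, where 13.6% of all tested genes were called and 4.86% were called lower. In Ri against NM 1 of 8 was called, lower, which is near the 13.1% of all tested genes called in either direction (4.04% lower). In Ga-H against NM edgeR called 0 of 8, against 8.12% of all tested genes, with 2 of the 8 at an unadjusted p under 0.05, and DESeq2 and limma on log2(FPKM + 1) also called 0, with 10.7% and 7.96% of all genes called. Between fungal groups edgeR called 0 of 8 in each comparison, where 0.840% of tested genes were called for Ga-H against Ga-L, 4.26% for Ri against Ga-L and 0.0165% for Ri against Ga-H. With 1 library left out these shares ran from 0% to 6.37%, from 0.617% to 15.1% and from 0% to 6.35%, each highest without Ri replicate 1. The genes at an unadjusted p under 0.05 numbered 3, 2 and 0 in these, and DESeq2 called 1, 2 and 0, with 6.06%, 8.69% and 0.765% of all genes called. limma on log2(FPKM + 1) called 0, 1 and 0, with 1.58%, 4.85% and 0.0991% of all genes. In a single test for any difference among the 4 groups, edgeR called 1 of the 8, Glyma.19G147900 (adjusted p = 0.0212), against 14.6% of all tested genes, while 5 had an unadjusted p under 0.05. That call was lost without NM replicate 2 or 3 or Ga-L replicate 2 or 3. Without Ri replicate 1 edgeR called 4 of the 8 in Ri against NM, where 28.3% of all tested genes were then called, 1 for Ga-H (12.2%) and 4 for Ga-L (20.4%).

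The lean of the values was downward, although many single differences did not pass. In Ga-L all 8 genes had a lower fitted value than in NM, in Ga-H all 8 and in Ri 7, where 49.5%, 49.6% and 46.9% of all tested genes did. Values that changed sign with a library left out or with another scaling lay within 0.03 of 0, except when the 8 genes themselves set the scale. The median log2 fold change of the 8 was -0.37 in Ga-L, -0.20 in Ga-H and -0.35 in Ri, beside 0.01, 0.00 and 0.03 over all tested genes. In Ga-L 7 of the 8 had all 3 libraries below NM in FPKM, against 22.0% of tested genes. The same held for 2 of 8 in Ga-H (10.1% of tested genes) and 4 of 8 in Ri (12.9%), where Glyma.12G051100 was also below in CPM. The 3 comparisons share the NM libraries, and NM replicate 2 was the highest library of 5 of the 8 genes. NM was the group with the highest mean log2 CPM for 7 of the 8 genes and Ga-L the lowest for 7, where the shares among tested genes with at least 10 FPKM were 31.8% and 30.8%. The mean log2 CPM of the 8 was 8.152 ± 0.117 (SD, n = 3) for NM libraries, 7.715 ± 0.216 for Ri, 7.902 ± 0.09 for Ga-H and 7.654 ± 0.126 for Ga-L, so their geometric mean was 0.739, 0.841 and 0.708 times that of NM in the colonized groups.

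As a set the reference genes were no steadier than other genes of fair abundance. The median SD of log2 CPM over the 12 libraries was 0.263 for the 8 and 0.253 for the 12861 tested genes with a mean of at least 10 FPKM, and 4 of the 8 were below the latter. Within groups the medians were 0.212 and 0.2, and the median distance between the highest and lowest group means was 0.518 and 0.428. The 8 ranged from the 0.194th percentile of SD in Glyma.12G051100 and the 5.82nd in Glyma.20G141600, through 33.6 in Glyma.12G020500 and 35 in Glyma.02G276600, to 63.4 in Glyma.18G290800, 70 in Glyma.05G157300, 82.6 in Glyma.12G024700 and 84.9 in Glyma.19G147900. Set against genes between 0.5 and 2 times its own level, the percentile of Glyma.12G024700 was 53.3 (92 genes), and that of Glyma.19G147900 was 82.5 (3797 genes). By the same measure Glyma.12G051100 was at 0.342, Glyma.20G141600 at 7.41 (27 genes) and Glyma.02G276600 at 26. Glyma.12G020500 was at 34.8, Glyma.18G290800 at 56.6 and Glyma.05G157300 at 62.4.

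Ratios of 2 genes within a library do not depend on how libraries are scaled. Over the 28 pairs the SD of the log2 ratio had a median of 0.356. The tightest pair was Glyma.12G051100 with Glyma.20G141600, whose log2 ratio had an SD of 0.101 and group means within 0.148 of each other. The next tightest joined genes that both leaned downward, Glyma.18G290800 and Glyma.05G157300, at an SD of 0.15, although the levels of these genes had SDs of 0.330 and 0.384 on the log2 CPM scale. Their ratio thus stayed within a 1.43-fold span over the 12 libraries, while Glyma.18G290800 spanned 2.1-fold and Glyma.05G157300 2.5-fold in FPKM. The gene with the smallest SDs against both was Glyma.02G276600, at 0.239 against Glyma.18G290800 and 0.247 against Glyma.05G157300. Glyma.19G147900 stood at 0.257 against Glyma.05G157300 and 0.361 against Glyma.18G290800. The loosest pair was Glyma.12G024700 with Glyma.19G147900, with an SD of 0.666 and a 4.61-fold span. Its mean log2 ratio was near 3 in Ri (3.018) and Ga-H (3.008), 3.374 for NM and 4.327 for Ga-L. Averaged over its 7 partners, the SD of the log2 ratio was smallest for Glyma.02G276600, at 0.297, and was 0.326 for Glyma.12G051100 and 0.359 for Glyma.20G141600. A ranking by mean ratio therefore put Glyma.12G020500 (0.310), Glyma.18G290800 (0.311) and Glyma.05G157300 (0.316) ahead of the genes with the smallest spread in CPM.

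**Figure D4:**
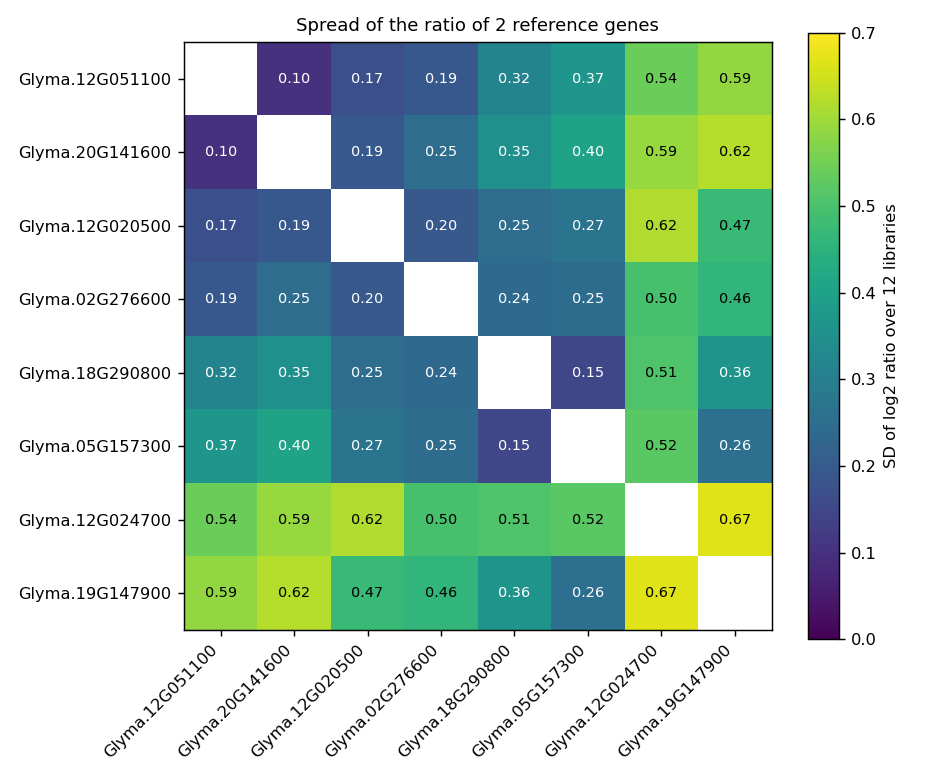
SD over 12 libraries of the log2 ratio of expected counts for each pair of the 8 reference genes, as a colour and a number, with genes in order of their own spread. The darkest cells are Glyma.12G051100 with Glyma.20G141600 (0.101) and Glyma.18G290800 with Glyma.05G157300 (0.15), and the lightest is Glyma.12G024700 with Glyma.19G147900 (0.666).

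The choice of divisor set what the other genes appeared to do. With the libraries scaled by TMM, a method that sets the bulk of genes to no change, 4954 of the tested genes were called in Ga-L against NM and 64.4% of them were higher (54.1% with upper quartile scaling and 56.1% with library totals). With the geometric mean of the 8 reference genes as the size factor, 12753 were called, 95.2% of them higher, and the median log2 fold change of all tested genes went from 0.01 to 0.50. In Ri against NM the calls went from 4765, with 69.2% higher, to 12664, with 94.5% higher, and the median from 0.03 to 0.47. In Ga-H against NM they went from 2949, with 77% higher, to 3192, with 92.2% higher, and the median from 0.00 to 0.25. The TMM counts themselves moved with single libraries. Without Ri replicate 1 they were 10297 for Ri (51.9% higher), 4447 for Ga-H (69.1%) and 7418 for Ga-L (55.8%). The Ri count was 2756 without NM replicate 2, 2991 without NM replicate 3, 2918 without Ri replicate 2 and 2982 without Ri replicate 3. The Ga-H count was 1948 without NM replicate 1 and 1796 without Ga-H replicate 2. The Ga-L count was 2461 without NM replicate 2, with 84.9% higher, 3167 without NM replicate 3, 2504 without Ga-L replicate 2 and 3041 without Ga-L replicate 3. The scalings by reference genes were not refitted with libraries left out.

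Single genes as divisors spread much further, an alternative added after their values were seen. With Glyma.19G147900 as the divisor 28938 genes were called in Ga-L against NM, 99.7% of them higher, at a median log2 fold change of 1.32. It gave 18630 calls in Ri against NM, 98.8% of them higher, but 2162 in Ga-H against NM, 95.1% of them higher. In Ga-H against Ga-L it gave 21533 calls, 99.5% of them lower, where TMM gave 305, a count that was 2313 without Ri replicate 1, 91 without Ga-H replicate 3, 973 without Ga-L replicate 1, 696 without Ri replicate 2 and at most 2 when NM replicate 3, either of the first 2 Ga-H replicates or either of the last 2 Ga-L replicates was left out. With Glyma.12G024700 28723 genes were called in Ri against NM, 99.4% of them higher, but 3261 in Ga-L against NM, 94.5% of them higher. In Ga-H against NM this divisor gave 6548 calls, 98.8% of them higher. With Glyma.12G020500 there were 3942 calls in Ri, of which 70.3% were higher, 2568 in Ga-H (80.5%) and 10179 for Ga-L (93.7%). With Glyma.18G290800 the calls for Ri, Ga-H and Ga-L numbered 8225, 4245 and 13257, of which 95.5%, 97.4% and 97.2% were higher. With Glyma.05G157300 they numbered 10234, 2599 and 20161, of which 96.5%, 95.7% and 98.6% were higher. Glyma.02G276600 gave 4319, 2255 and 4570 calls, of which 81.4%, 83.9% and 84.6% were higher. Glyma.12G051100 gave 4903, 2904 and 4851 calls, of which 76.6%, 76.7% and 76.2% were higher, and Glyma.20G141600 gave 3609, 2695 and 3778, of which 73.6%, 85.9% and 81.9% were higher. Their geometric mean gave 4353, 2850 and 4449 calls. These counts describe what scaling does to the same data and do not show which genes changed.

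**Figure D5:**
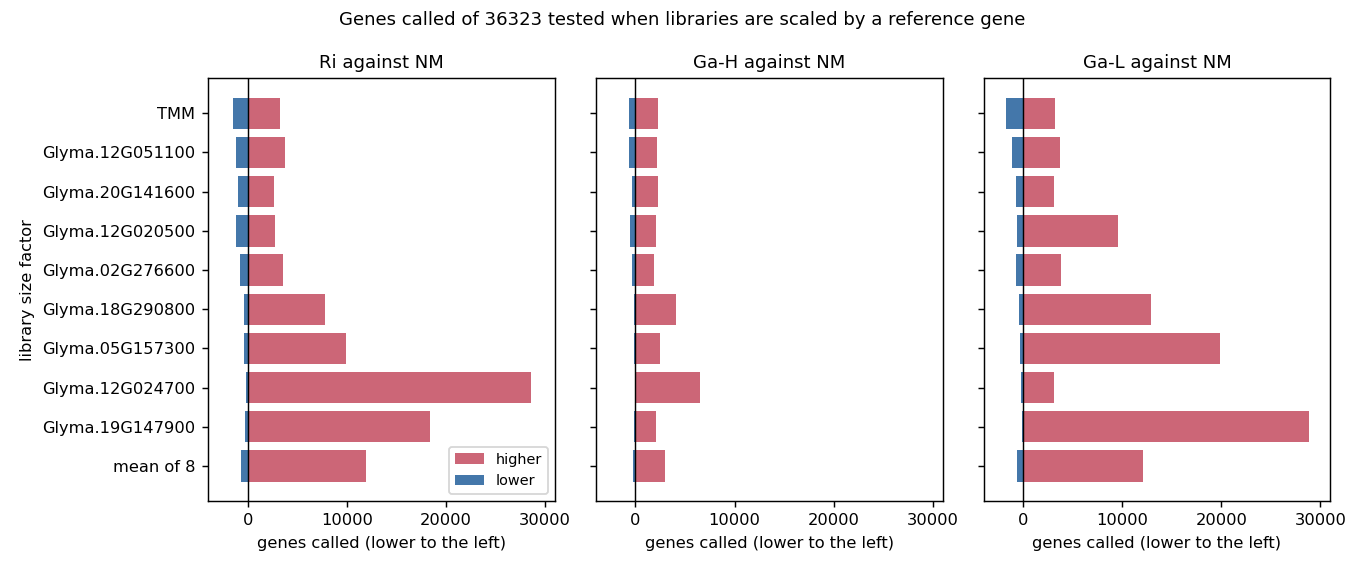
Number of genes called of 36323 tested (edgeR, adjusted p under 0.05), higher to the right and lower to the left of 0, in Ri, Ga-H and Ga-L against NM, for libraries scaled by TMM, by each reference gene alone or by the geometric mean of all 8. The longest bars are those of Glyma.12G024700 in Ri, with 28565 higher genes, and of Glyma.19G147900 in Ga-L, with 28859.

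Some other genes were steadier or followed the same course. Glyma.15G259200.Wm82.a2.v1 and Glyma.07G263800.Wm82.a2.v1 had the smallest SD of log2 CPM among tested genes outside the 8 with a mean of at least 10 FPKM, 0.034 and 0.045 against 0.063 for Glyma.12G051100. The first ranged from 44.51 to 51.14 FPKM over the 12 libraries and the second from 33.78 to 38.29. They were picked for their spread in these libraries. The genes that followed the mean log2 CPM of the 8 most closely were Glyma.04G193400.Wm82.a2.v1 and Glyma.17G120400.Wm82.a2.v1, by the SD over 12 libraries of the difference from that mean, 0.059 and 0.076. Mean FPKM in the order NM, Ri, Ga-H, Ga-L was 353, 260, 311 and 245 for the first gene and 17.2, 13.7, 15.2 and 12.9 for the second. Neither passed the test for any difference among the groups (edgeR adjusted p = 0.146 and 0.15). Both were picked for following the mean of the 8, so this is no separate evidence on group differences.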

How the data were processed

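Root RNA of 12 libraries, 3 in each of NM, Ri, Ga-H and Ga-L, was sequenced after purification with a CTAB-based reagent and a BGI library kit, per the labels' protocols. For each library the authors deposited expected counts, FPKM and transcript lengths by gene, per the file headers. Bowtie2, HISAT and RSEM appear in the submitters' processing notes, with neither version nor role. Genes not listed in a table were set to 0. Strand handling is not given in the sources used here.

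Expected counts, as deposited, were rounded and tested in R 4.3.3 with edgeR 4.0.16: default filter by group, TMM, robust quasi-likelihood fit of all 12 libraries with 1 mean per group and 8 residual degrees of freedom, and Benjamini-Hochberg adjustment over 36323 genes at 0.05. Standard errors and 95% intervals came from the fitted weights and moderated dispersions. The biological coefficient of variation was 22.4%. Deposited FPKM values are shown as levels and used to judge overlap of groups. SDs are of log2 CPM with a prior count of 0.5. Totals per library were 10182200 to 11054762, for a counting CV of 0.571% to 3.68% in the 8 genes.

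Alternatives were other scalings, no filter, DESeq2 1.42.0, limma 3.58.1 on log2(FPKM + 1) or log2(FPKM + 0.1) with at least 1 FPKM in 3 libraries or without a filter, a replicate block, the compared groups alone, and each library left out. Named besides the 8 genes are the 2 steadiest tested genes of at least 10 FPKM and the 2 nearest to the mean of the 8. The 8 genes came from a list of IDs with no use of their values, but genes and tests were chosen with earlier results of these data known. Lists of related gene families could not be matched without names.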

Additional observations from a re-analysis of the deposited data

How the results depend on the processing

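Of 667 recomputed values of 29 log2 fold changes, 588 kept their direction and side of the threshold, 18 lost and 31 gained a call, and 30 changed sign. These include scaling by the geometric mean of the 8, which by itself moves the values and reversed many of them. The 29 were those given above and that of Glyma.05G157300 in Ga-H against Ga-L, 0.48. The number of the 8 genes called for any difference among the groups was 1, but 5 with DESeq2, 3 with limma on log2(FPKM + 1) or log2(FPKM + 0.1), and 2 with limma without a filter, upper quartile scaling, library totals, no low-count filter or the geometric mean of the 8 as size factor. The share of all genes called in that test is not given for these settings. For Ri against NM the number of the 8 called was 1, but 2 with DESeq2, upper quartile scaling or the geometric mean, and 0 with only these groups fitted. In these settings 17.3%, 12.8%, 34.9% and 5.43% of all genes were called, in place of 13.1%. The added gene was Glyma.19G147900, lower, with DESeq2 and with upper quartile scaling. With the geometric mean it was Glyma.12G020500, higher in Ri (log2 fold change 0.41, edgeR adjusted p = 0.0348). For Ri against Ga-L the count was 0, but 2 with DESeq2 (8.69% of all genes) and 1 with library totals (4.77%), either filtered limma fit (4.85% and 4.11%) or the geometric mean (4.21%). For Ga-H against Ga-L the count was 0, but 1 with DESeq2 (6.06% of all genes), the geometric mean (3.92%) or only these groups fitted (6.79%). For Ga-L against NM the geometric mean gave 1 in place of 3, while the share of all genes called was 35.1% in place of 13.6%.

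With 1 library left out, the counts ran from 0 to 4 for any difference and for Ri against NM, from 1 to 4 for Ga-L against NM, and from 0 to 1 for Ga-H against NM and for each comparison between fungal groups. The shares of all genes called then ran from 7.59% to 28.3% for Ri against NM. They ran from 6.78% to 20.4% for Ga-L and from 4.94% to 12.2% for Ga-H. The median SD of log2 CPM of the 8 genes ran from 0.239 to 0.279 and the median SD of their pair ratios from 0.324 to 0.37. The count for Ga-H against NM reached 1 without Ri replicate 1. Log2 fold changes that changed sign with a library left out were those of Glyma.12G020500, with a range of -0.09 to 0.04 in Ri and -0.08 to 0.04 in Ga-H. Others ran from -0.14 to 0.02 for Glyma.02G276600 in Ga-H, from -0.04 to 0.04 for Glyma.12G051100 in Ga-H and from -0.08 to 0.05 for Glyma.20G141600 in Ri.

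Scaling by the geometric mean of the 8 moves each value by construction. Against NM, in the order Ri, Ga-H, Ga-L, Glyma.12G020500 was then at 0.41, 0.23 and 0.11, Glyma.02G276600 at 0.21, 0.21 and 0.22, and Glyma.12G051100 at 0.37, 0.24 and 0.42. Glyma.20G141600 was at 0.17 in Ga-H and 0.41 in Ga-L, and Glyma.12G024700 at 0.15 in Ga-L. Glyma.20G141600 in Ri was -0.06 with upper quartile scaling. Glyma.12G051100 in Ga-H was 0.02 with library totals and with all 3 limma fits, which put Glyma.12G020500 in Ga-H at 0.01.

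Whether the replicate numbers pair the libraries could not be decided, since 3 libraries per group are too few for that. The deviations of same-numbered libraries from their group means correlated between -0.361 and 0.223, over 0.1 in 6 of 18 pairs. Those 6 pairs were all between fungal groups, and 4 of 12 libraries correlated best with their own number. With the replicate block 2 of the 8 genes were called in Ri against NM in place of 1, since Glyma.19G147900 passed (edgeR adjusted p = 0.0489), and Glyma.12G020500 in Ga-L did not (0.0612). The block called 11.8% of all tested genes in Ri against NM, in place of 13.1%, and 12.7% in Ga-L against NM, in place of 13.6%. Over all tested genes the block left 0 calls in Ga-H against Ga-L, in place of 305. The cause of these changes was not tested.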
